A study of Homo sapiens with 12 samples.

Results

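GDF9, BMP15, DPPA3, PRM1, PRM2, GPD2, GDA, DAZL, KIT and PRDM1 are 10 genes that either are used by germ cells or were reported as targets of the nuclear receptor GCNF in mouse. They were taken by name, and every probe set that the platform's annotation gives to them was followed, which came to 15 of 54675 probe sets. Of the 10 genes, 9 had a probe set of their own, among 19775 genes that did. DPPA3 had only a probe set that it shares with DPPA3P2 and DPPA3P4, so its signal cannot be assigned to it alone. The cells were H9, a human embryonic stem cell line, and per the labels every culture, including those given no agent, carried a Tet-on construct for GCNF, which doxycycline (Dox) switches on. Total RNA was hybridised to 12 single-colour expression arrays in 4 groups of 3. The Dox-labelled day 6 cells were left to differentiate in medium with 15% serum with 1 µg/ml Dox for 6 days. The RA-labelled day 6 cells had the same medium with 1 µM retinoic acid (RA) for 6 days. The d0 cells with Dox were kept undifferentiated in stem cell medium with 1 µg/ml Dox for 4 days, and the d0 cells were undifferentiated and given no agent. Comparisons of day 6 with d0 differ in medium, time and, for the RA-labelled cells, agent, and these cannot be told apart. The day 6 medium was not run without an agent in the arrays used here. The promoter of the construct and whether the cells were 1 clone are not given in the sources used here.

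GCNF, the product of NR6A1, is an orphan nuclear receptor that binds as a homodimer to a direct repeat of the nuclear receptor half-site with no spacer and represses the genes it binds. In mouse embryonic stem cells it shuts down pluripotency genes during differentiation, and in the mouse gonad it is found in growing oocytes and in round spermatids. Germ cells arise when PRDM1 and its partners set apart primordial germ cells, which need the receptor KIT to survive and migrate and DAZL to commit to the germ line, and they end as oocytes that secrete GDF9 and BMP15 or as sperm whose DNA is packed by the protamines PRM1 and PRM2.

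RefSeq promoter windows (GRCh38.p14, 250 bases before to 50 bases after a start) were available for 9 of the 10 genes, all but PRM1, in 15 windows. None of the 15 held the half-site AGGTCA, its extended form TCAAGGTCA or the direct repeat, which is AGGTCA followed at once by a second AGGTCA, on either strand. Each longer motif contains the shorter ones. Over all 35116 windows of that length, 0.0171% held the direct repeat, 0.353% the extended half-site and 13.8% the half-site. What the windows differ in is the number of CG dinucleotides, which had quartiles of 4, 14 and 28 over all windows. KIT had 38, DAZL had 33 and 29 at its 2 starts, and GPD2 had 36 and 6. GDF9 had 17 to 25 over its 4 starts, GDA had 17, PRDM1 had 14 and 8, and DPPA3 and PRM2 had 6 each. BMP15 had 3. The 250 bases before the start are shown for DAZL, which changed most with Dox at d0, for KIT, which differed most between the day 6 groups, for PRDM1, which rose at day 6, and for BMP15, the CG-poor promoter of an oocyte gene, and capitals mark each CG dinucleotide. For DAZL and PRDM1 the start with more CG is shown. The DAZL stretch is chr3:16605424-16605673 (minus strand), that of KIT chr4:54657707-54657956 (plus strand), that of PRDM1 chr6:106086086-106086335 (plus strand) and that of BMP15 chrX:50910485-50910734 (plus strand), each printed 5′ to 3′ in the direction of the gene. They hold 28, 34, 11 and 3 CG dinucleotides in that order.
DAZL: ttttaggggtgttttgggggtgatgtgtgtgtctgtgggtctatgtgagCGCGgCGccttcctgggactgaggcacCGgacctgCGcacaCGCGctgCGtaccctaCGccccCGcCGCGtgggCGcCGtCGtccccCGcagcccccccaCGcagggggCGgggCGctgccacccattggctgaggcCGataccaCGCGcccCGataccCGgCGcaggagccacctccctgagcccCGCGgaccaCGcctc
KIT: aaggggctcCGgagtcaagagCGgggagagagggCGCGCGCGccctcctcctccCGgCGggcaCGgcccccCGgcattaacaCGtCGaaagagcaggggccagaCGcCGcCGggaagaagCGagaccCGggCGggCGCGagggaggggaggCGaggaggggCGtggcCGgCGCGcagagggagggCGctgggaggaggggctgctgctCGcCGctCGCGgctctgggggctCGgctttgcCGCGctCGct
PRDM1: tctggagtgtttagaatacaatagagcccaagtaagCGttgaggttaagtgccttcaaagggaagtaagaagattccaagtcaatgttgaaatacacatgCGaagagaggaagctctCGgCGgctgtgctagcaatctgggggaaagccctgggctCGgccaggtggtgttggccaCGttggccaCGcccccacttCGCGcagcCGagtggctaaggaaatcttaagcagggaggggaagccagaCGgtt
BMP15: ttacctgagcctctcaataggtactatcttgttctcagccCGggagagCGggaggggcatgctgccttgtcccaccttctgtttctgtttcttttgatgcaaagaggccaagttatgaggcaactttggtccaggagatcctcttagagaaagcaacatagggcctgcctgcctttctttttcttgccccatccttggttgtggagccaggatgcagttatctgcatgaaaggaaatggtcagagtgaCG

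The induction was checked on NR6A1 itself, through 7 probe sets. With Dox at d0 all 7 were higher than at d0, by 0.62 to 3.96 on the log2 scale, and 6 passed the test over all probe sets, the other at 1.54 (limma adjusted p = 0.087). The probe set with the largest rise averaged 29.2 ± 13.7 in Dox-labelled day 6 arrays, 336 ± 70.9 in RA-labelled day 6 arrays, 615 ± 40.8 in d0 arrays with Dox and 26.8 ± 17.6 in d0 arrays (SD, n = 3 each). At day 6, of the probe sets derived from mRNA records, 3 were lower in Dox-labelled than in RA-labelled arrays (-1.21 to -2.99), against the labels, and 1 was not called (-0.17), while 3 derived from expressed sequence tags were higher (0.79 to 0.99). CYP26A1, a retinoic acid hydroxylase that retinoic acid induces, also stood against the labels, at 29594 ± 1005 in Dox-labelled and 271 ± 37.0 in RA-labelled day 6 arrays (SD, n = 3 each). CYP26B1, another CYP26 enzyme, ran the same way, at 5075 ± 346 in Dox-labelled and 46.6 ± 11.9 in RA-labelled day 6 arrays. GALNT16 averaged 2694 ± 115 in d0 arrays with Dox and 148 ± 18.7 in d0 arrays. At day 6 it averaged 370 ± 13.4 in Dox-labelled and 8816 ± 643 in RA-labelled arrays, the opposite order for Dox. Groups are called by their labels below, and every direction at day 6 rests on those labels. The median signal of an array was 64.2 to 78.0, replicates correlated at 0.980 to 0.982, and no pair of arrays held the same values. The ratio of 3′ to 5′ signal of ACTB, a measure of RNA integrity and labelling, was 2.33 ± 0.058 in Dox-labelled and 2.59 ± 0.290 in RA-labelled day 6 arrays, 3.86 ± 0.0111 in d0 arrays with Dox and 3.24 ± 0.139 in d0 arrays (SD, n = 3 each). No 2 groups overlapped in this ratio, so it moves with each comparison below, and its part in the results was not tested.

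Signals are linear intensities that depend on the probes, so a level is compared between groups and not between genes. Changes are differences of group means of log2(intensity + 16), tested with limma on all 12 arrays, and a gene is said to rise or fall at a Benjamini-Hochberg adjusted p at or under 0.05 over all 19775 genes. Where arrays are listed, they are in the order of the replicate numbers, which name the arrays and were not used to pair them. Replicates are labelled as biological with no word on what separates them, so the spread behind each p-value is that between these arrays, which may be technical. In bulk RNA, fewer cells of a type and less RNA per cell cannot be told apart.

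The members fell into genes with clear signal and genes near the floor. DAZL, KIT, PRDM1, GPD2 and GDA had a highest group mean at or above that of the median gene, which was 347, and all 5 changed in at least 1 comparison. GDF9, BMP15, PRM1 and PRM2 lay below it and passed the test in none. A split on the highest group mean favours genes that differ between groups, so it is no support for the changes. DAZL passed it only in d0 arrays with Dox (992), GDA only in the d0 groups and PRDM1 only in the day 6 groups. The share of all genes called in at least 1 comparison is not given. With Dox at d0, 2 of 9 measured members rose (DAZL and GPD2) and 0 fell, where 12.9% of all genes were called (7.75% rose and 5.16% fell). Between the Dox-labelled and RA-labelled day 6 arrays 3 of 9 rose (KIT, GDA and PRDM1) and 0 fell, against 25.9% of all genes (13.7% rose and 12.2% fell). In RA-labelled day 6 arrays against d0 arrays 1 rose (PRDM1) and 4 fell (DAZL, KIT, GDA and GPD2), against 50.5% of all genes (25.3% rose and 25.2% fell). The same genes made up the 1 rise and 4 falls in Dox-labelled day 6 arrays against d0 arrays with Dox, against 46.1% of all genes (22.2% rose and 23.9% fell). The median change of the 9 members was 0.09, 0.40, -0.32 and -0.09 in these comparisons, beside 0.03, 0.00, -0.01 and -0.03 over all genes. Counted over the 15 probe sets, with adjustment over all 54675, 1, 3, 1 and 2 rose and 0, 0, 7 and 7 fell, against 5.81%, 15.5%, 38.1% and 34.9% of all probe sets called in either direction. With 9 genes these shares say nothing particular about the group. The shares over all genes given here also apply to the count of each gene list below, where some are not repeated.

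**Figure D1:**
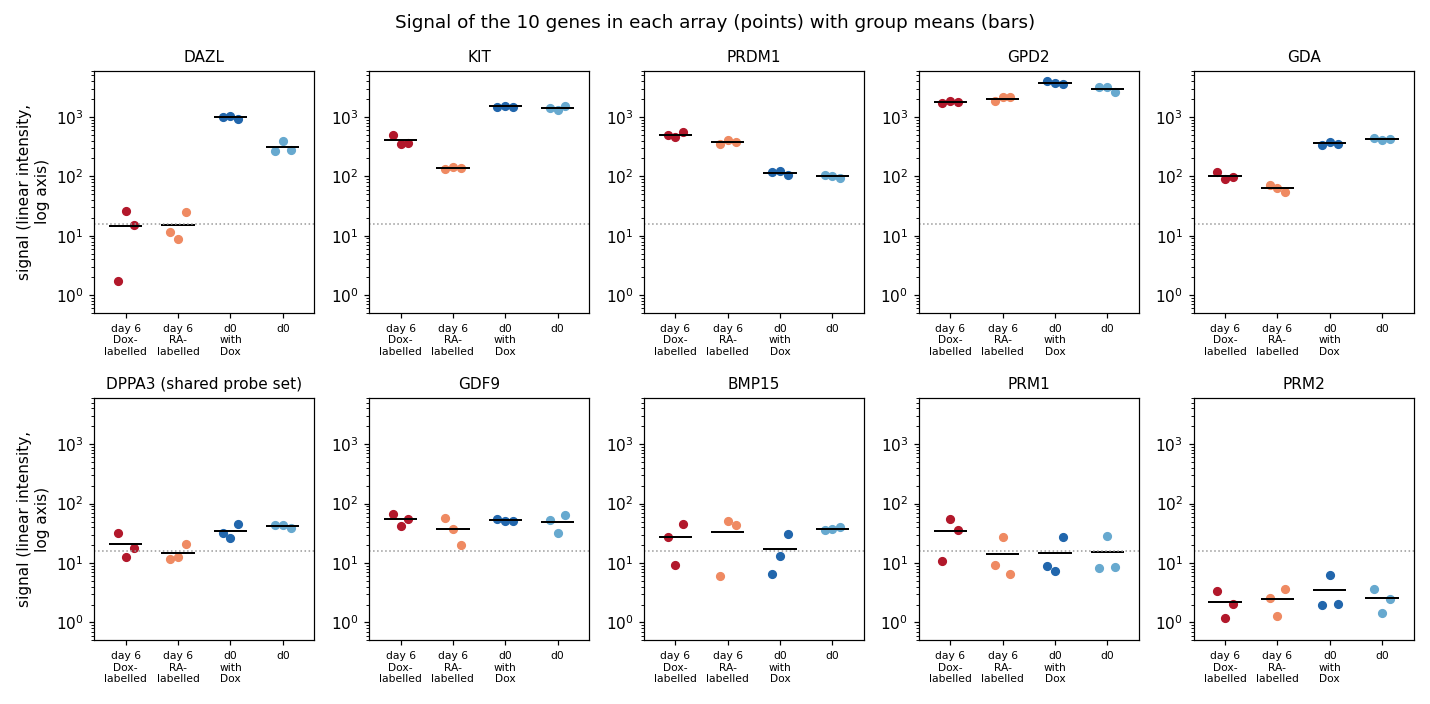
Signal of the 10 genes (linear intensity on a log axis) in each array, with the brightest probe set of each gene; points are arrays, bars are group means, and the dotted line is the constant of 16 added before taking logs. DAZL, KIT, GPD2 and GDA are lower in both day 6 groups than in both d0 groups, PRDM1 is higher, and the other 5 stay under 100 in every array.

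DAZL, an RNA-binding protein that promotes translation of germ cell mRNAs, was the member with the largest called change with Dox in undifferentiated cells, and its signal was near the floor at day 6. Its signal was 1007, 1048 and 922 in d0 arrays with Dox and 264, 389 and 274 in d0 arrays. The 3 arrays with Dox all lay above the 3 without, and no array of either group came near the other. The change was 1.65 ± 0.30 (log2, SE, limma adjusted p = 0.00616), a 3.14-fold rise with a 95% interval of 0.98 to 2.33 on the log2 scale. Adjusted over all probe sets it kept an adjusted p of 0.0114. With a constant of 1 in place of 16 the rise was 1.70 with an adjusted p of 0.183, and in the other settings tried it was called at 1.52 to 1.82.

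At day 6 DAZL was close to the floor in both groups. Its signal was 1.76, 26.2 and 15.4 in Dox-labelled arrays and 11.5, 8.74 and 25.4 in RA-labelled arrays. These overlap, and their difference was -0.09 ± 0.30 (adjusted p = 0.884). Against d0 arrays the RA-labelled arrays fell by 3.40 ± 0.30 (adjusted p = 4.84e-06), and against d0 arrays with Dox the Dox-labelled arrays fell by 5.13 ± 0.30 (adjusted p = 3.54e-07). Both sizes depend on the constant added to the signal, since the day 6 means of 14.5 and 15.2 lie below it, and they ranged from -2.22 to -4.37 and from -3.76 to -6.53 over the settings tried. With a constant of 64 the fall in RA-labelled arrays (-2.22) was smaller than that of KIT (-2.88). The 2 changes to day 6 differed by -1.74 ± 0.43 (Dox minus RA, adjusted p = 0.0146), and 24.2% of all genes passed this test of the difference. By construction it is the day 6 difference (-0.09) minus the d0 difference (1.65).

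Of 26 measured genes on a list of late germ cell and genome defence genes (of 27 listed), which includes the piRNA pathway, 1 rose with Dox at d0 (DAZL) and 1 fell, ELAVL2, a neuronal-type RNA-binding protein, by 1.08 (adjusted p = 3.1e-05). DDX4, the germ cell RNA helicase that in the gonad accompanies DAZL, had group means of 1.81 to 3.16. In RA-labelled day 6 arrays against d0 arrays 9 of the 26 fell and 3 rose, where 25.2% of all genes fell and 25.3% rose. DAZL itself was the largest fall (-3.40), with TEX15, which acts with piRNA-guided silencing in mouse, at -2.79 and MAEL, a piRNA factor, at 1.19. In Dox-labelled day 6 arrays against d0 arrays with Dox 6 fell and 1 rose, where 23.9% of all genes fell and 22.2% rose. DAZL was again the largest fall (-5.13), with TEX15 at -2.92 and PIWIL4, a PIWI protein, at 1.03. MAGEB2 (0.66) and ELAVL2 (0.34) rose between the day 6 groups, MAGEB2 at low signals of 43.2 ± 11.4 in Dox-labelled and 21.6 ± 8.25 in RA-labelled arrays. The 3 genes whose signal ran most like that of DAZL over the 12 arrays, among 9888 genes at or above the median in their highest group, were MSANTD2 (Pearson r = 0.993), GJC1 (0.987) and CACHD1 (0.986). These points are 4 groups of 3 and share the arrays, so r describes the order of the groups.

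KIT, the receptor tyrosine kinase for stem cell factor, did not pass the test for Dox at d0, fell in both day 6 groups and was higher in the Dox-labelled than in the RA-labelled one. Its signal was 499.5, 344 and 368 in Dox-labelled day 6 arrays and 135, 143 and 137 in RA-labelled day 6 arrays. Every Dox-labelled array lay above every RA-labelled one, although the Dox-labelled arrays spread more widely. The difference was 1.43 ± 0.12 (log2, SE, adjusted p = 1.84e-05), or 2.69-fold. At d0 the signal was 1492, 1555 and 1481 with Dox and 1431, 1333 and 1506 without. These ranges overlap, and the difference was 0.09 with a 95% interval of -0.18 to 0.35 (adjusted p = 0.726).

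From these levels KIT fell by 3.22 ± 0.12 in RA-labelled day 6 arrays against d0 arrays (adjusted p = 1.1e-08) and by 1.88 ± 0.12 in Dox-labelled day 6 arrays against d0 arrays with Dox (adjusted p = 6.33e-07). The 2 changes differed by 1.34 ± 0.17 (adjusted p = 0.000373), so KIT fell less in the Dox-labelled arrays, in every setting tried (1.11 to 1.44). The order of the groups was d0 with Dox, d0, Dox-labelled and RA-labelled, in which only the d0 groups overlap. OIP5, SPAG5 and KIF4A ran most like KIT, each at r = 0.996 over the 12 arrays.

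The ligand of KIT and its signalling partners were read from a list that includes KIT itself. Of 17 measured genes of KIT signalling (of 18 listed), 0 rose and 3 fell with Dox at d0, where 12.9% of all genes were called. The larger falls were those of STAT5A, a transcription factor that the receptor activates (-0.84, adjusted p = 0.034), and PIK3R1, a regulatory subunit of PI3 kinase (-0.69). Between the day 6 groups 5 rose and 2 fell. KITLG, which encodes stem cell factor, averaged 4827 ± 124 in Dox-labelled and 1553 ± 232 in RA-labelled day 6 arrays (SD, n = 3 each) and rose by 1.64 (adjusted p = 2.8e-06). PDGFRA, a receptor tyrosine kinase of the same class as KIT, rose by 1.89 (adjusted p = 7e-05), while PTPN6, a phosphatase that dampens KIT signalling, fell by 0.52 and CBL, a ubiquitin ligase for activated receptors, fell by 0.27. Of the 17, 5 rose and 9 fell in RA-labelled day 6 arrays against d0 arrays, and 8 rose and 4 fell in Dox-labelled day 6 arrays against d0 arrays with Dox. PDGFRA (1.80 and 3.41) and MITF, a melanocyte transcription factor downstream of KIT (1.24 and 2.57), rose most in both, and SOCS1, an inhibitor of cytokine signalling, fell in both (-1.33 and -1.64).

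KIT is also used by melanocyte and blood precursors, and wider marker lists that cover those cells were read over the same arrays. Of 16 measured neural crest and melanocyte markers, 7 rose between the day 6 groups, most of all SOX9 (2.38) and TFAP2A (2.17), and 1 fell, PAX3 (-0.51). Their summed signal ran from 16066 to 16579 in Dox-labelled and from 9587 to 10398 in RA-labelled day 6 arrays. It ran from 15561 to 16399 in d0 arrays with Dox and from 11270.2 to 12042 in d0 arrays. A sum weighs its brightest genes most, and EDNRB alone averaged 8953 ± 277 in d0 arrays with Dox and 3447 ± 51.4 in d0 arrays (SD, n = 3 each). TYR, the melanocyte tyrosinase, stayed at group means of 33.8 to 40.3 and SOX10 at 23.8 to 83.0. Of 14 endothelial and blood markers 4 rose and 1 fell between the day 6 groups, with sums of 3290 to 3544 in Dox-labelled and 2195 to 2401 in RA-labelled arrays, and 2596 to 3143 in d0 arrays with Dox and 2895 to 3002 in d0 arrays. PTPRC, the common leukocyte antigen, stayed at group means of 11.2 to 33.0. None of these markers was listed at 0 on average in any group, which does not show that each was expressed. Their part in the KIT result was not tested.

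PRDM1, the zinc finger repressor that starts primordial germ cell fate and also acts in plasma cells and several epithelia, was the 1 member that rose at day 6. Its brightest probe set had 498, 460.3 and 549.9 in Dox-labelled day 6 arrays and 345, 407 and 382 in RA-labelled day 6 arrays, and 119, 123 and 106 in d0 arrays with Dox and 106, 100.2 and 93.3 in d0 arrays. The day 6 arrays all lay above the d0 arrays, the Dox-labelled arrays all lay above the RA-labelled arrays, and the d0 groups overlapped near 106. PRDM1 rose by 1.98 ± 0.09 in Dox-labelled day 6 arrays against d0 arrays with Dox (log2, SE, adjusted p = 8.29e-08), or 3.93-fold, and by 1.76 ± 0.09 in RA-labelled day 6 arrays against d0 arrays (adjusted p = 1.15e-07), or 3.40-fold. These changes differed by 0.21 (adjusted p = 0.307). The day 6 groups differed by 0.40 ± 0.09 (adjusted p = 0.0114), and the d0 groups by 0.18 ± 0.09 (adjusted p = 0.253).

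The 2 dimmer probe sets of PRDM1 carried less. The second averaged 103 ± 43.5 in Dox-labelled and 80.8 ± 36.1 in RA-labelled day 6 arrays, 33.5 ± 19.2 in d0 arrays with Dox and 27.6 ± 12.9 in d0 arrays (SD, n = 3 each), the same order of groups. Its rises were 1.28 in Dox-labelled arrays (adjusted p over all probe sets = 0.0421) and 1.11 in RA-labelled arrays (adjusted p = 0.0688). The dimmest went the other way without being called, at -0.74 (adjusted p = 0.4003) and -0.70 (adjusted p = 0.421), and 1 array of each day 6 group stood far above its fellows, at 109.9 against 12.7 and 13.4 in the Dox-labelled group and at 75.6 against 9.52 and 11.97 in the RA-labelled group. With the mean of all its probe sets the rise in RA-labelled arrays was 0.72 (adjusted p = 0.0536) and the difference between the day 6 groups 0.31 (adjusted p = 0.498). GDF15 (r = 0.996), CTSB (0.994) and SH3BGRL3 (0.994) ran most like the brightest probe set over the 12 arrays.

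**Figure D2:**
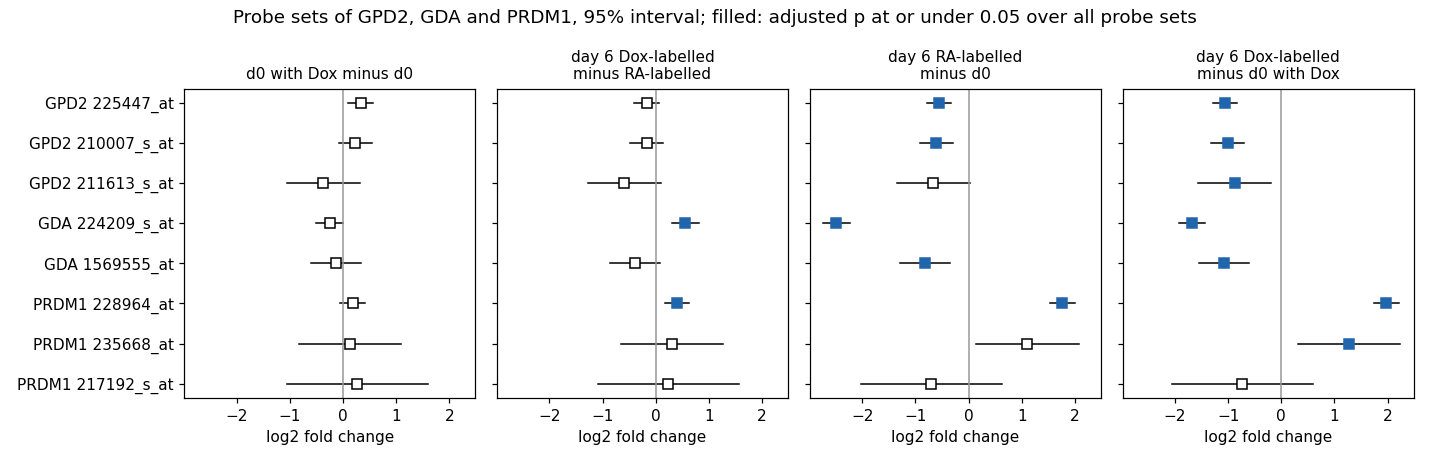
Log2 fold change with its 95% interval for each probe set of GPD2, GDA and PRDM1 in the 4 comparisons, brightest probe set first within a gene; filled symbols have an adjusted p at or under 0.05 over all 54675 probe sets. All 3 GPD2 probe sets and both GDA probe sets fell in Dox-labelled day 6 arrays against d0 arrays with Dox, and 2 of 3 PRDM1 probe sets rose there; between the day 6 groups the GDA probe sets point in opposite directions.

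Of 22 measured genes of primordial germ cell specification (of 23 listed, PRDM1 and KIT included), 4 rose and 10 fell in Dox-labelled day 6 arrays against d0 arrays with Dox, where 22.2% of all genes rose and 23.9% fell. Of the 22, 2 rose and 13 fell in RA-labelled day 6 arrays against d0 arrays, where 25.3% of all genes rose and 25.2% fell. NANOS1, an RNA-binding translational repressor, rose beside PRDM1 (2.56 and 1.69). PRDM14, a repressor needed for pluripotency and for the germ line in mouse, fell by 6.11, at 14.1 ± 6.44 in Dox-labelled day 6 arrays and 2033 ± 155 in d0 arrays with Dox. It fell by 3.39 with 266 ± 20.2 in RA-labelled day 6 arrays and 2959 ± 484 in d0 arrays (SD, n = 3 each). IFITM1, an interferon-induced membrane protein that marks early mouse germ cells, fell by 3.59 and 3.74, and TFAP2C, a transcription factor that works with PRDM1, by 1.19 and 1.43. SOX17, which sets human germ cell fate, had group means of 65.4 to 92.8, and NANOS3, a germ cell survival factor, of 15.7 to 34.9. In Dox-labelled against RA-labelled day 6 arrays 6 of 22 rose and 1 fell, with KLF4, a pluripotency factor, at 1.05 and PRDM14 at -3.25. With Dox at d0, KLF4 was the only gene of the 22 to change (-0.62).

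A list of 18 genes held PRDM1 itself and genes that act with it, oppose it or are repressed by it in lymphocytes or germ cells. Of these, 3 rose and 3 fell with Dox at d0. ZBTB20, a zinc finger repressor, rose by 0.73, and MYC, which PRDM1 represses in plasma cells, fell by 1.43, at 1083 ± 105 in d0 arrays with Dox and 2938 ± 324 in d0 arrays (SD, n = 3 each). At day 6, Dox-labelled against RA-labelled, 2 rose and 4 fell, with PRDM1 at 0.40, PRMT5, an arginine methyltransferase that partners PRDM1 in mouse germ cells, at 0.35 and the corepressor TLE1 at -0.64. In RA-labelled day 6 arrays against d0 arrays 5 rose and 9 fell, and in Dox-labelled day 6 arrays against d0 arrays with Dox 5 rose and 10 fell, PRDM1 among the rises in both, with ZBTB20 at 2.08 and 1.42. BCL6, a repressor that opposes PRDM1 in B cells, rose by 2.04 in RA-labelled arrays.

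Markers of other cells that use PRDM1 were read over the same arrays. Of 14 endoderm markers, 7 rose and 4 fell in Dox-labelled day 6 arrays against d0 arrays with Dox and 4 rose and 4 fell in RA-labelled day 6 arrays against d0 arrays. Their summed signal ran from 10516 to 12955 in Dox-labelled and from 3304 to 6387 in RA-labelled day 6 arrays, and from 2890.5 to 3245 in d0 arrays with Dox and 3889 to 4258 in d0 arrays. GATA6, an endoderm transcription factor, rose by 5.07 in Dox-labelled arrays and alone averaged 8032 ± 179 there, most of that sum (SD, n = 3). CER1 (-4.05) and EOMES (-2.50) fell most in the same comparison, while FOXA2 stayed at group means of 41.3 to 68.6. Of 16 amnion and trophoblast markers, 9 rose and 1 fell in Dox-labelled arrays and 6 rose and 3 fell in RA-labelled arrays. Their sums were 41026 to 42308 in Dox-labelled and 7527 to 8987 in RA-labelled day 6 arrays, and 4252 to 4556 in d0 arrays with Dox and 4299.8 to 4469 in d0 arrays. In Dox-labelled arrays IGFBP3, a binding protein for insulin-like growth factors, rose by 4.51 and KRT7, an epithelial keratin, by 5.08. IGFBP3 alone averaged 26620 ± 1094 in Dox-labelled and 2448 ± 628 in RA-labelled day 6 arrays (SD, n = 3 each). CGA, the hormone subunit of trophoblast, stayed at group means of 4.46 to 11.1. None of these markers averaged 0 in any group, which does not show that each was expressed. Their part in the PRDM1 result was not tested.

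**Figure D3:**
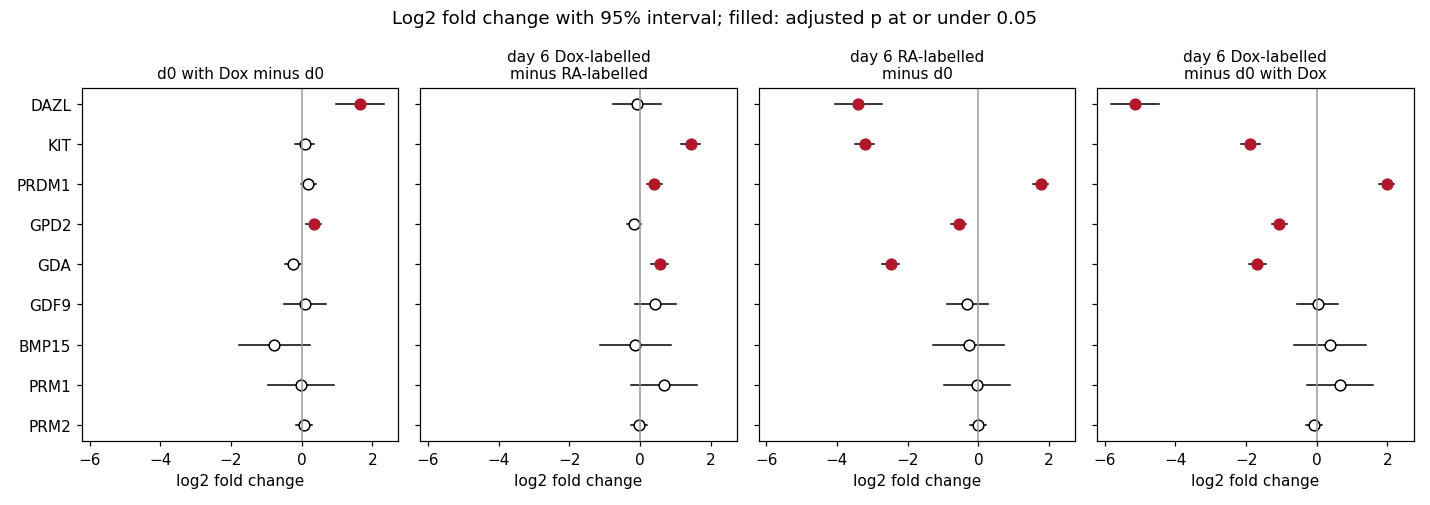
Log2 fold change with its 95% interval (limma, 12 arrays) of the 9 measured members in the 4 comparisons; filled points have an adjusted p at or under 0.05 over all 19775 genes. DAZL stands out with Dox at d0 (1.65), KIT between the day 6 groups (1.43), and DAZL, KIT, GDA and GPD2 fall while PRDM1 rises from d0 to day 6.

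GPD2 is the mitochondrial glycerol-3-phosphate dehydrogenase, which passes electrons from cytosolic glycerol phosphate to the respiratory chain, and was reported as a GCNF target in mouse. It fell in 3 of 3 probe sets in Dox-labelled day 6 arrays and in 2 of 3 in RA-labelled ones, each against its d0 group. Its brightest probe set had 1737, 1893 and 1792 in Dox-labelled and 1838, 2135 and 2157 in RA-labelled day 6 arrays, and 3980.0, 3709.6 and 3660.3 in d0 arrays with Dox and 3175, 3181 and 2675 in d0 arrays. The day 6 groups overlap, both lie below the d0 groups, and the d0 arrays with Dox all lie above the d0 arrays. Against d0 arrays with Dox, the Dox-labelled day 6 arrays fell by 1.06 ± 0.09 (adjusted p = 6.48e-06), and against d0 arrays the RA-labelled ones fell by 0.55 ± 0.09 (adjusted p = 0.000552). These changes differed by -0.50 ± 0.13 (Dox minus RA, adjusted p = 0.0197), and the day 6 groups by -0.17 (adjusted p = 0.223).

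The rise of GPD2 with Dox at d0 was small and depended on the settings. It was 0.33 ± 0.09 (adjusted p = 0.0446), or 1.26-fold. It missed the threshold with adjustment over all probe sets (adjusted p = 0.0999) and without any single array of either d0 group, with values of 0.25 to 0.37 and adjusted p of 0.0563 to 0.136, and without 5 of the 6 day 6 arrays left out in turn, at adjusted p of 0.0540 to 0.0638. The second probe set averaged 593 ± 6.64 with Dox and 502 ± 35.6 without (0.23, adjusted p = 0.426), and the dimmest probe set 36.6 ± 12.1 with Dox and 51.5 ± 11.0 without (-0.37, adjusted p = 0.587). In Dox-labelled day 6 arrays against d0 arrays with Dox these fell by 1.01 and 0.88, the dimmest at an adjusted p of 0.049. CEP135 (r = 0.988), FAM161A (0.984) and ADGRA3 (0.982) ran most like GPD2 over the 12 arrays.

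Among 17 measured genes of the glycerol phosphate shuttle and glycerol metabolism (of 19 listed), GPD2 was the only one called with Dox at d0. GPD1, the cytosolic enzyme of the same shuttle, had group means of 6.81 to 16.2. In RA-labelled day 6 arrays against d0 arrays 3 rose and 8 fell, with AQP3, a glycerol channel, at 1.31 and PGP, a glycerol phosphate phosphatase, at -1.71. In Dox-labelled day 6 arrays against d0 arrays with Dox 4 rose and 4 fell, with GPAT3, an acyltransferase that uses glycerol phosphate, at 0.77 and PGP at -1.02. In Dox-labelled against RA-labelled day 6 arrays 5 rose and 2 fell, with GPAT3 at 1.31 and AQP3 at -0.85.

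GDA, the guanine deaminase that turns guanine into xanthine, fell strongly at day 6 and less so in the Dox-labelled arrays. Its brighter probe set had 117, 91.3 and 95.8 in Dox-labelled and 72.8, 63.97 and 54.5 in RA-labelled day 6 arrays, and 341, 379 and 354 in d0 arrays with Dox and 443, 412 and 429.9 in d0 arrays. No 2 groups overlap, and their order from high to low is d0, d0 with Dox, Dox-labelled and RA-labelled. The fall was 2.48 ± 0.11 in RA-labelled day 6 arrays against d0 arrays (adjusted p = 2.51e-08) and 1.68 ± 0.11 in Dox-labelled day 6 arrays against d0 arrays with Dox (adjusted p = 5.59e-07), and these changes differed by 0.80 ± 0.15 (adjusted p = 0.00341). At day 6 the groups differed by 0.56 ± 0.11 (adjusted p = 0.00339). With Dox at d0 the difference of -0.25 ± 0.11 missed the threshold (adjusted p = 0.169), although the arrays did not overlap.

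Non-overlap by itself is common in groups of 3: with Dox at d0 the arrays of 4 of 9 members did not overlap, where 31.5% of all genes did not. The second probe set of GDA fell as well at day 6, by 1.08 in Dox-labelled arrays (adjusted p = 0.0023) and by 0.82 in RA-labelled arrays (adjusted p = 0.0104). Between the day 6 groups it pointed the other way, at 15.4 ± 3.68 in Dox-labelled and 25.6 ± 7.07 in RA-labelled arrays (-0.40, adjusted p = 0.266), and with the mean of both probe sets the day 6 difference was 0.08 (adjusted p = 0.617). NPTX1 (r = 0.997), NUFIP1 (0.996) and METTL5 (0.996) ran most like GDA over the 12 arrays.

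On a list of purine degradation and salvage enzymes, rises outnumbered falls in the comparisons of day 6 with d0. The list includes GDA itself, its largest fall in both. Of 18 measured (of 20 listed), 10 rose and 5 fell in RA-labelled day 6 arrays against d0 arrays, where 25.3% of all genes rose and 25.2% fell. ADA, the adenosine deaminase, was at 1.68 and IMPDH2, a guanine nucleotide synthesis enzyme, at -0.84. In Dox-labelled day 6 arrays against d0 arrays with Dox 8 rose and 4 fell, where 22.2% of all genes rose and 23.9% fell. NT5E, the ectonucleotidase that makes adenosine, was at 2.24 and ADA at 1.99. Between the day 6 groups 6 rose and 2 fell, with ADA at 0.51 and NT5C2, a cytosolic nucleotidase, at -0.98. With Dox at d0 none rose, and NT5E (-1.03) and APRT, the adenine salvage enzyme (-0.34), fell.

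DPPA3, a maternal and germ cell protein that guards DNA methylation in the early mouse embryo, could be read only through the probe set it shares with DPPA3P2 and DPPA3P4. That probe set had 31.6, 12.7 and 17.9 in Dox-labelled and 11.6, 12.5 and 20.6 in RA-labelled day 6 arrays, and 32.0, 26.5 and 44.9 in d0 arrays with Dox and 44.1, 43.4 and 38.4 in d0 arrays. The RA-labelled arrays all lie below the d0 arrays, and the change of -0.92 passed the test over all probe sets (adjusted p = 0.0039). Dox-labelled day 6 arrays against d0 arrays with Dox overlap (-0.47, adjusted p = 0.0968), as do the d0 groups (-0.22, adjusted p = 0.637) and the day 6 groups (0.23, adjusted p = 0.525). All signals were under 45, and which of the genes gives them cannot be told apart.

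GDF9 and BMP15, the growth factors that oocytes send to the granulosa cells around them and that GCNF represses in mouse oocytes, showed no called difference. GDF9 ranged from 20.0 to 66.9 over the 12 arrays with a median of 52.1, with group means of 54.5 ± 12.6, 37.9 ± 18.5, 52.8 ± 2.72 and 49.9 ± 16.7 in Dox-labelled day 6, RA-labelled day 6, d0 with Dox and d0 arrays (SD, n = 3 each). All 4 groups overlap with a neighbour, and the change with Dox at d0 was 0.09 with a 95% interval of -0.49 to 0.68. BMP15 had 27.2, 9.32 and 45.4 in Dox-labelled and 6.16, 50.2 and 44.5 in RA-labelled day 6 arrays, and 6.52, 13.3 and 30.9 in d0 arrays with Dox and 36.0, 37.4 and 40.6 in d0 arrays. The d0 arrays with Dox all lie below the d0 arrays, but the change of -0.78 had a 95% interval of -1.79 to 0.23 (adjusted p = 0.315). At these signals, about as large as the constant added before taking logs, changes of more than 2-fold in BMP15 are within its interval.

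The receptors and inhibitors of these growth factors included brighter genes, 12 to 13 of the list reaching a mean of 100 in a group, while INHBB stayed at group means of 5.94 to 12.2. Of 18 measured genes of the list (of 20 listed, with both growth factors included), 3 rose and 0 fell with Dox at d0. FST, the activin-binding inhibitor follistatin, had the largest rise, 2.22 (adjusted p = 8.9e-08), at 13693 ± 14.6 in d0 arrays with Dox and 2935 ± 63.0 in d0 arrays (SD, n = 3 each), and the receptor TGFBR1 rose by 0.42. Between the day 6 groups 5 rose and 4 fell, with INHBA, an activin subunit, at 2.56 and GREM1, a BMP antagonist, at -4.10, where GREM1 averaged 645 ± 129 in Dox-labelled and 11168 ± 256 in RA-labelled arrays. In RA-labelled day 6 arrays against d0 arrays 7 rose and 3 fell, with BMPR2, the type II receptor that GDF9 and BMP15 share, at 2.75. In Dox-labelled day 6 arrays against d0 arrays with Dox 6 rose and 5 fell, with INHBA at 5.53 and FST at -3.66.

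PRM1 and PRM2, which replace histones in the sperm nucleus, stayed near or under the constant added before taking logs. PRM1 ranged from 6.50 to 55.1 and PRM2 from 1.20 to 6.39 over the 12 arrays, and neither passed the test in any comparison. For PRM1 the largest difference was between the day 6 groups, at 34.0 ± 22.3 in Dox-labelled and 14.3 ± 11.3 in RA-labelled arrays (0.67, adjusted p = 0.295). PRM2 lay under the constant of 16 on every array, where the log scale compresses changes, so a difference was not detectable at this signal. Between 23.1% and 26.5% of all probe sets lay under 16 on an array.

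Genes of meiosis, oocytes and sperm were mostly dim too, though many were brighter than PRM1 and PRM2. Of 104 genes measured on the 4 lists of later germ cell stages, late germ cell and genome defence included, 19 reached a group mean of 100 and 85 did not. The median over all genes of the highest group mean was 347. Of 23 measured meiosis genes (of 27 listed), 0 rose and 0 fell with Dox at d0, where SPATA22, a meiotic recombination protein, came nearest (0.90, adjusted p = 0.082). REC8, the meiotic cohesin subunit, rose by 0.93 between the day 6 groups, at 632 ± 128 in Dox-labelled and 321 ± 50.2 in RA-labelled arrays (SD, n = 3 each), and SYCP2, a synaptonemal complex protein, fell by 1.10. In the comparisons of day 6 with d0, 2 rose and 4 fell in each, with MNS1, a sperm tail and meiosis protein, at -1.48 in RA-labelled and -1.23 in Dox-labelled arrays.

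Of 23 measured oocyte genes (of 29 listed), NLRP7, a maternal-effect gene in human, was the only one called with Dox at d0, at 57.2 ± 13.5 in d0 arrays with Dox and 179 ± 21.2 in d0 arrays (-1.43, adjusted p = 0.012). With NLRP2, another gene of that family, it fell in RA-labelled day 6 arrays (-2.89 and -1.06 for NLRP2, 3 of 23 falling in all) and in Dox-labelled day 6 arrays (-1.47 and -1.27 for NLRP2, the only falls). Of 32 sperm genes, ODF2, a sperm tail protein that also sits at centrosomes, rose with Dox at d0 (0.36) and between the day 6 groups (0.38), the only gene to rise in each. Between the day 6 groups 2 fell, TNP1, a spermatid nuclear protein (-0.84), and HSPA2 (-0.32). TNP1 was near the floor, at 5.32 ± 3.02 in Dox-labelled and 22.0 ± 2.40 in RA-labelled arrays, so the size of its fall depends on the constant. In RA-labelled day 6 arrays against d0 arrays 4 rose and 2 fell, with CREM, a cAMP-responsive transcription factor, at 1.20 and HSPA2, a heat shock protein abundant in testis, at -1.45. In Dox-labelled day 6 arrays against d0 arrays with Dox 3 rose and 1 fell, with CREM at 0.71 and HSPA2 at -1.97.

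**Figure D4:**
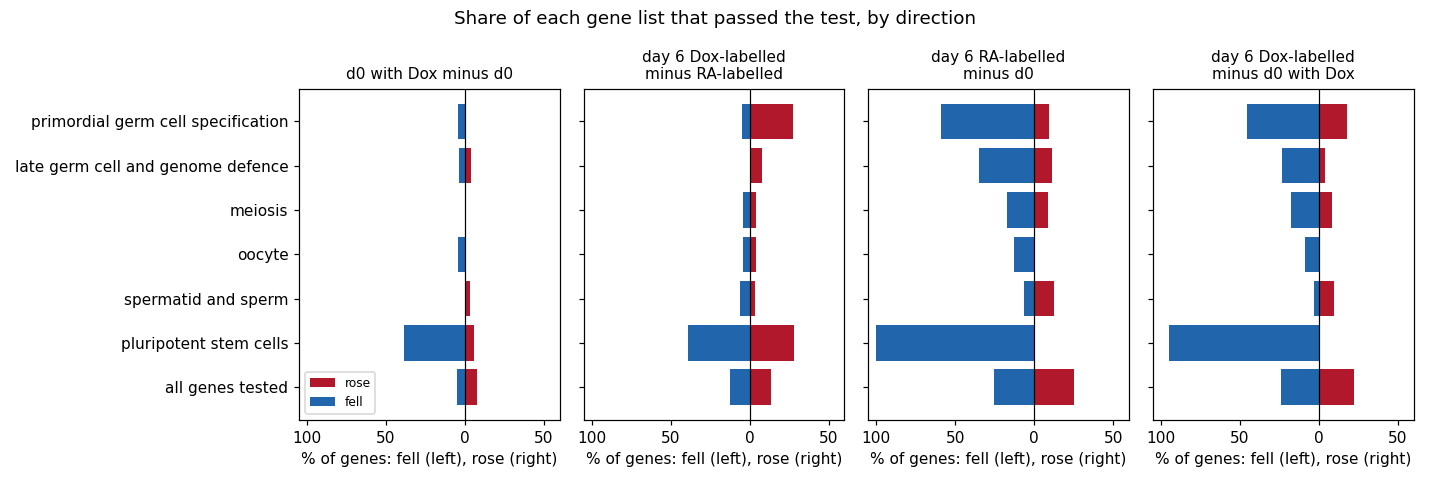
Share of the measured genes of each list that fell (left) or rose (right) at an adjusted p at or under 0.05 in the 4 comparisons, with all 19775 genes in the lowest row. In the later germ cell lists most genes passed no test in any comparison, while 18 of 18 pluripotency genes fell in RA-labelled day 6 arrays against d0 arrays.

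A list of genes reported as mouse GCNF targets overlaps the members and adds pluripotency genes. Of its 12 genes 9 were measured, 5 of these members. POU5F1, TDGF1 and the member DPPA3 had no probe set of their own and are missing from its counts. With Dox at d0, 2 rose and 1 fell, where 7.75% of all genes rose and 5.16% fell. Between the day 6 groups 0 rose and 2 fell, where 13.7% of all genes rose and 12.2% fell. Each comparison of day 6 with d0 had 0 rises and 5 falls, the member GPD2 among them. Over all genes, falls made up 25.2% (RA-labelled) and 23.9% (Dox-labelled) there. NANOG, a core pluripotency factor, fell in all 4: its changes were -1.09 with Dox at d0, -3.64 between the day 6 groups, -4.16 in RA-labelled day 6 arrays against d0 arrays and -6.70 in Dox-labelled day 6 arrays against d0 arrays with Dox. SOX2 rose by 0.35 with Dox at d0 (adjusted p = 0.047) and fell by 0.38 between the day 6 groups. FGF4, a growth factor made by stem cells, averaged 33.0 ± 23.7 in Dox-labelled and 33.9 ± 24.9 in RA-labelled day 6 arrays, and 317 ± 42.5 in d0 arrays with Dox and 360 ± 34.6 in d0 arrays (SD, n = 3 each). Over the wider list of 18 measured pluripotency genes, 1 rose and 7 fell with Dox at d0, 5 rose and 7 fell between the day 6 groups, and 18 and 17 fell in the RA-labelled and Dox-labelled comparisons with d0, in which DAZL, KIT, GDA and GPD2 fell too. Their sums were 48442 to 49543 in Dox-labelled and 38985 to 40833 in RA-labelled day 6 arrays, against 169880.0 to 175517 in d0 arrays with Dox and 190432 to 211451 in d0 arrays. Of 17 somatic gonad markers, 1 rose with Dox at d0, 3 rose between the day 6 groups and 3 and 7 rose in the RA-labelled and Dox-labelled comparisons with d0, and 0 fell; NR5A1 stayed at group means of 3.56 to 9.21. The comparisons share groups of arrays, so their values are given side by side and not correlated.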

How the data were processed

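Total RNA of 12 H9 cultures in 4 groups of 3, grouped by the sample titles, was read on single-colour arrays. Judged by their range, the values the authors deposited are intensities on a linear scale, 1 per probe set and array. The sources used here do not give their background correction or probe summary. The mean of each array without the lowest and highest 2% of probe sets was 500, so a signal is relative to its array. The number of arrays limits the precision.

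The platform's annotation gave 1 symbol to 41097 of 54675 probe sets, several to 1801, and did not list 11777. Symbols of 41043 were updated through the gene table of GRCh38.p14. A gene (19775 in all) was read from its brightest probe set by mean log2 signal. Probe sets with several symbols named nothing but the shared one of DPPA3.

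The test was limma 3.58.1 in R 4.3.3, fitted to log2(intensity + 16) of the 12 arrays by group, with 8 residual degrees of freedom. Its p-values were adjusted by Benjamini and Hochberg's method, once over genes and once over probe sets, and called at 0.05. It was tested on simulated data. Same-numbered replicates deviated together weakly at most (r of -0.008 to 0.048). For replicate 3 this r was above that with the other numbers in all 4 comparisons, by little (0.048 against -0.015 for RA-labelled day 6 with d0).

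The 10 members, the gene lists and the rule for named genes were chosen with earlier results of these data known, so no list is independent support. The rule named the members with every probe set, NR6A1, at most 2 top rises and 2 top falls per list (where none passed, the gene of smallest p) and, for each called member, the 3 genes of highest Pearson r. Genes outside it (CYP26A1, CYP26B1, GALNT16, DDX4, SOX17, NANOS3, TFAP2C, FGF4, GPD1, TYR, SOX10, PTPRC, FOXA2, CGA, NR5A1 and a few repeats of listed genes across comparisons) were added for their role, after their values were seen. Alternatives were scaling, choice of probe set, a filter on dim genes, the constant, the variance model, array weights, the samples fitted, a replicate block, a 2-fold minimum and leaving out each array.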

Additional observations from a re-analysis of the deposited data

Results flagged for a closer look

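The changes to day 6 differed between the Dox-labelled arrays (against d0 arrays with Dox) and the RA-labelled arrays (against d0 arrays) for 4 members, by a limma test of the difference itself. DAZL fell by 5.13 in Dox-labelled and by 3.40 in RA-labelled arrays on the log2 scale, a difference of -1.74 (adjusted p = 0.0146). Both day 6 means (14.5 and 15.2) lie under the constant of 16, so these falls depend on it, and the difference is mainly that between the d0 groups (1.65). GPD2 fell by 1.06 in Dox-labelled and by 0.55 in RA-labelled arrays, a difference of -0.50 (adjusted p = 0.0197). KIT fell by 1.88 in Dox-labelled and by 3.22 in RA-labelled arrays, a difference of 1.34 (adjusted p = 0.000373). GDA fell by 1.68 in Dox-labelled and by 2.48 in RA-labelled arrays, a difference of 0.80 (adjusted p = 0.00341). The day 6 labels that these differences rest on go against CYP26A1, CYP26B1 and 3 of 7 probe sets of NR6A1 on the same arrays. GALNT16, which was higher with Dox at d0, was lower in Dox-labelled than in RA-labelled day 6 arrays. The labels are followed by 3 other probe sets of NR6A1.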

How the results depend on the processing

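Over 12 alternatives and 12 arrays left out in turn, 1003 of 1036 values of single members kept their side of the threshold. A called value was counted as kept only if its direction was unchanged, so their kept direction holds by definition. Values that were uncalled in both fits were counted as kept too, and 29 of these changed sign. Of the rest, 31 no longer passed, 1 newly passed (GPD2 between the day 6 groups, -0.31, adjusted p = 0.0499, when all probe sets of a gene were averaged) and 1 called value reversed. The reversed one was GPD2 with Dox at d0, at -0.37 (adjusted p = 0.565) with the probe set of highest variance, another and dimmer probe set. With Dox at d0, the 2 members called became 1 with median centring, averaging over probe sets, the probe set of highest variance, genes at or above the median mean (where DAZL is not tested), the 6 arrays alone, the replicate block or a 2-fold minimum, and 0 with a constant of 1. They were 1 to 2 without a single array. GPD2 was called in 6 of 24 settings there, and the cause was not tested. Between the day 6 groups the 3 members called became 1 with genes at or above the median mean and 1 with a 2-fold minimum. With averaging over probe sets GDA (0.08, adjusted p = 0.617) and PRDM1 (0.31, adjusted p = 0.498) were no longer called there. GPD2 was called in their place. In RA-labelled day 6 arrays against d0 arrays, averaging ended the call of PRDM1 (0.72, adjusted p = 0.0536). The probe set of highest variance ended that of GPD2 (-0.66, adjusted p = 0.115). In each comparison of day 6 with d0 the 5 called became 2 with genes at or above the median mean, where dimmer members are not tested. For the difference between the changes the 4 called became 2 with averaging over probe sets, genes at or above the median mean or a 2-fold minimum. The constant of 1 also ended the DAZL difference (-2.16, adjusted p = 0.181), and the mean of probe sets the GDA one (0.27, adjusted p = 0.190). The main fit did not pair arrays by replicate number, and with the replicate block 2296 genes were called with Dox at d0, against 2552 without it. That count was 1522 with the 6 arrays alone and 1587 with the probe set of highest variance. Median centring moved the median change of all genes in Dox-labelled day 6 arrays against d0 arrays with Dox to 0.11, against -0.03. Signals near the constant limit what can be read of DPPA3, GDF9, BMP15, PRM1 and PRM2.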
